A study of Homo sapiens with 6 samples.

Results

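Aminoacyl-tRNA synthetases are the enzymes that attach amino acids to their tRNAs. The 36 synthetase genes considered here were chosen by gene symbol, 20 encoding the cytosolic enzymes and 16 the mitochondrial enzymes, whose symbols end in 2. Of these, 32 could be followed among the 14428 genes tested, 17 cytosolic and 15 mitochondrial, and all 32 lay above the low-value limit of the arrays. MARS1, QARS1 and TARS2 were left out because their probe sets are annotated to a microRNA gene as well. Where several probe sets read the same gene, the brightest on average was used.

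The RNA came from A2058, an established human melanoma cell line, in 3 versions: TET2WT and TET2M, which overexpress the constructs of those names, and Mock. The sample descriptions shorten TET2WT to WT and TET2M to Mut, and TET2 itself converts methylated cytosines of DNA into oxidised forms. Each line grew for 7 days in DMEM with 4.5 g/L (high) or 1 g/L (normal) glucose, and 1 Affymetrix array was run on bulk RNA of every combination, 6 in all. The promoter behind the constructs, the change in TET2M and whether a line is 1 clone were not stated in the labels.

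Each amino acid has its own synthetase, and most cells use separate enzymes, encoded by different nuclear genes, in the cytosol and in the mitochondrion. Exceptions are GARS1 and KARS1, which each encode both forms of the glycine and lysine enzymes. Several cytosolic enzymes sit with the scaffold proteins AIMP1, AIMP2 and EEF1E1 in the multisynthetase complex, and the others work outside it. Many cytosolic synthetase genes are known targets of ATF4, a transcription factor of the integrated stress response, which binds composite sites together with C/EBP proteins in genes of amino acid supply.

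All values are log2 probe set values, and differences are log2 differences. The sign ± gives limma's standard error (SE), a gene passed when its adjusted p was under 0.05 over all 14428 genes, and the arrays carry no replicate of any combination of line and glucose. Errors therefore rest in part on the disagreement among the 3 lines about glucose and between the 2 concentrations about the lines. The other part is a variance that limma pools over all genes, with 3.97 prior against 2 residual degrees of freedom. The p-values reflect both parts, and some of the spread of single arrays may be technical. The brightest of the 3 TET2 probe sets read 9.54 and 9.68 at high and normal glucose in TET2WT, 7.57 and 7.37 in TET2M, and 3.81 and 4.13 in Mock. Another read 6.64 and 6.87 in TET2WT, 4.57 and 3.89 in TET2M, against 2.10 and 2.64 in Mock, and the last lay between 5.15 and 5.41 on all arrays. Of the melanoma markers, SOX10 read between 9.38 and 9.65, MCAM between 8.75 and 9.29 and S100B between 7.20 and 7.90. CSPG4 read between 6.69 and 8.04 and MITF between 6.30 and 6.96, both considered again beside the TET2WT comparison. PMEL, between 3.55 and 4.20, and S100A1, between 3.81 and 4.26, were low. The pigment cell genes MLANA, TYR, TYRP1 and DCT did not pass the low-value limit. Of 9 markers of other cell types (epithelium, fibroblasts, vessels and blood), 5 passed that limit. KRT14 read between 3.89 and 6.86, and KRT5, COL1A1, DCN and PECAM1 between 2.67 and 4.81.

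Promoter stretches are shown first, because the cytosolic and mitochondrial genes differed in how often they held a match to the site of ATF4. The windows come from RefSeq (GRCh38.p14), run from 250 bases before to 50 after a transcript start and were found for 30 of the 36 genes. Of the tested genes, LARS1, VARS1, YARS1, AARS2 and VARS2 had none. The search used TGATGNAA, the core of the composite site of ATF4 and C/EBP proteins, on both strands, where N is any base. A match was present in 7 of the 16 cytosolic genes with a window and in 1 of the 14 mitochondrial genes. Among all 35116 windows 3.62% held it, and among the 11514 tested genes with a window 3.04%. Each line below gives the bases around the match, read 5′ to 3′ on the strand of the gene, with the match in capitals. Most matches read as the reverse complement of the motif.
GARS1 (chr7:30594819-30594878, + strand): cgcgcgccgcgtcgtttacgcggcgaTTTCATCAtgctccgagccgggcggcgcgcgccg
NARS1 (chr18:57621807-57621866, - strand): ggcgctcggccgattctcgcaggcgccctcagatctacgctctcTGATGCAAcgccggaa
CARS1 (chr11:3057394-3057453, - strand): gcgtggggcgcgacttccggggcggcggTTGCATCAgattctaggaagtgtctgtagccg
TARS1 (chr5:33440935-33440994, + strand): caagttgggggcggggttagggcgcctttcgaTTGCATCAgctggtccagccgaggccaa
AARS1 (chr16:70289660-70289719, - strand): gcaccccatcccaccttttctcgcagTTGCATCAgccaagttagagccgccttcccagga
IARS1 (chr9:92293677-92293736, - strand): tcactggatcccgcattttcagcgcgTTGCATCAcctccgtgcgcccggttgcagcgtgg
MARS1 (chr12:57488038-57488097, + strand): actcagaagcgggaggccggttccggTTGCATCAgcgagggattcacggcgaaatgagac
YARS2 (chr12:32756061-32756120, - strand): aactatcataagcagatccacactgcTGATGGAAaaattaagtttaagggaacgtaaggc

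The match began 33 bases before the start in GARS1, 13 before it in IARS1, 4 before it in MARS1 and 2 before it in CARS1. In TARS1 it began at base 3 of the transcript and in NARS1 at base 15. AARS1 and YARS2 were the exceptions, with matches 187 and 197 bases before the start. A match is a description of letters, and binding was not measured.

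The comparison of high with normal glucose took the 3 lines together. None of the 32 synthetase genes passed in limma, where 0.00693% of all genes did, and 6 had an unadjusted p under 0.05 with a positive difference. Across all genes 7.18% met that last condition, and 0 synthetase genes had an unadjusted p under 0.05 with a negative difference (8.19% of all genes). The cytosolic genes had a median difference of 0.13, with 12 positive and 4 negative among 17. The mitochondrial genes had a median of -0.037, with 3 positive and 12 negative among 15. All tested genes had a median of -0.02, and 43.4% of them were positive.

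**Figure D1:**
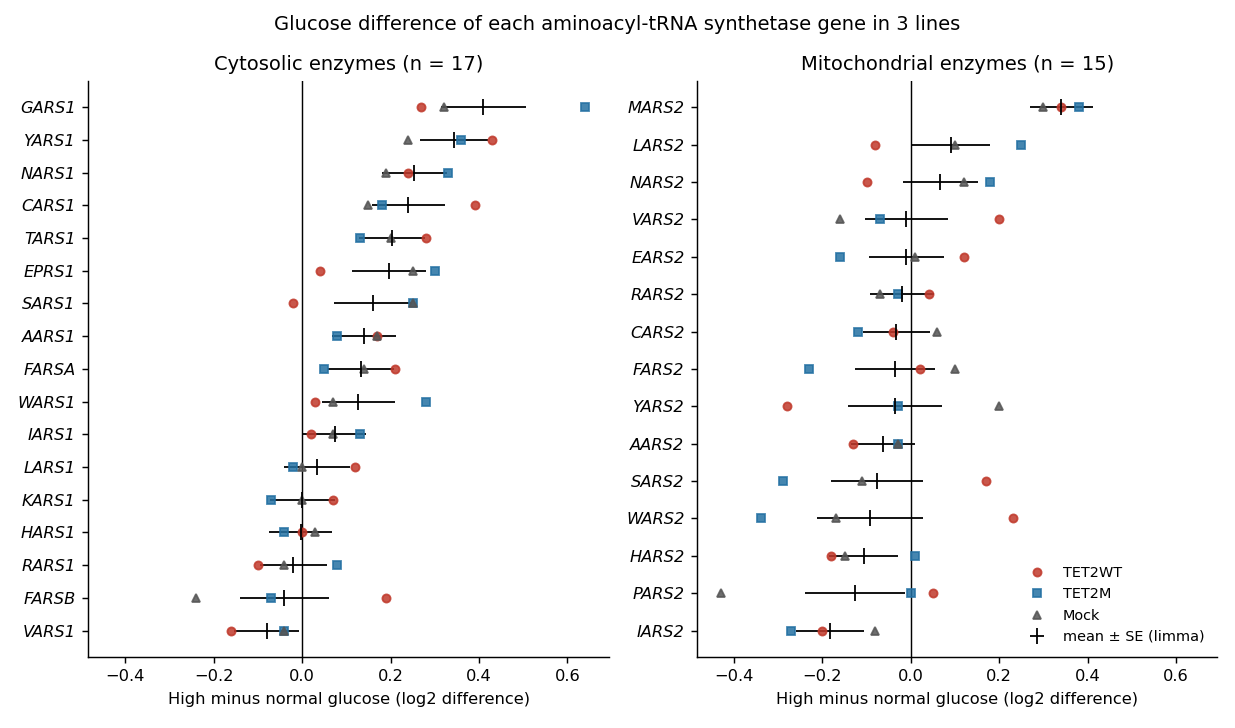
Log2 difference between high and normal glucose (horizontal axis) for each synthetase gene, with 1 marker for each of the 3 lines and the mean with limma's SE as a bar. The cytosolic genes range from GARS1 at 0.41 to VARS1 at -0.08, and MARS2 at 0.34 stands apart from the other 14 mitochondrial genes.

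GARS1, which encodes the glycine enzyme of both compartments, had the largest difference of the set. It read 10.64, 10.95 and 10.79 at high glucose in TET2WT, TET2M and Mock, against 10.37, 10.31 and 10.47 at normal glucose in the same order of lines. The high-glucose arrays lay above all normal-glucose arrays, and the widest gap, 0.64, was in TET2M. The mean difference was 0.41 ± 0.097 (adjusted p = 0.183, limma; higher in 3 of 3 lines).

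YARS1, the cytosolic tyrosine enzyme, read 9.56, 9.58 and 9.64 at high glucose in TET2WT, TET2M and Mock, against 9.13, 9.22 and 9.40 at normal glucose. Again the groups did not overlap, and the difference of 0.34 ± 0.077 was positive in 3 of 3 lines (adjusted p = 0.170, limma). A dimmer YARS1 probe set read 5.94, 6.32 and 5.90 at high glucose in the same lines, against 5.61, 5.79 and 5.94 at normal glucose. Its groups overlapped, and its difference in Mock was -0.04. NARS1, which charges the asparagine tRNA, read 11.01, 11.14 and 11.09 at high glucose in the 3 lines, against 10.77, 10.81 and 10.90 at normal glucose. Its difference was 0.25 ± 0.074 (adjusted p = 0.224, limma), and every high-glucose array lay above every normal-glucose array.

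CARS1, the cysteine enzyme, read 10.27, 10.15 and 10.12 at high glucose in TET2WT, TET2M and Mock, against 9.88, 9.97 and 9.97 at normal glucose. The widest gap was in TET2WT, at 0.39, and the mean difference was 0.24 ± 0.082 (adjusted p = 0.271, limma). TARS1, the threonine enzyme, read 10.62, 10.52 and 10.56 at high glucose in the same lines, against 10.34, 10.39 and 10.36 at normal glucose, a difference of 0.20 ± 0.074 (adjusted p = 0.285, limma). The 3 high-glucose arrays were again above the 3 normal-glucose arrays in both genes. A dim TARS1 probe set had differences of mixed sign, at 0.05 in TET2WT, -0.14 in TET2M and 0.18 in Mock.

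MARS2, the mitochondrial methionine enzyme, was the exception in its compartment. It read 5.34, 5.30 and 5.45 at high glucose in TET2WT, TET2M and Mock, against 5.0, 4.92 and 5.15 at normal glucose. The groups did not overlap, and its differences within the lines, 0.34, 0.38 and 0.30, were the closest to each other among the 6 genes with the largest differences. The mean was 0.34 ± 0.071 (adjusted p = 0.163, limma). Its level was low enough that the gene lay nearer to the low-value limit of 2.64 than all other members except YARS2 and PARS2.

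In all, 8 of the 17 cytosolic genes had 3 high-glucose arrays above the 3 normal-glucose arrays, namely AARS1, CARS1, EPRS1, FARSA, GARS1, NARS1, TARS1 and YARS1. Among the mitochondrial genes MARS2 was the 1 of 15, and across all genes 6.04% met this rule. The reverse order, met by 7.8% of all genes, was found in 0 of the 32. The alanine enzyme gene AARS1 had a difference of 0.14 ± 0.072, the gene of the bifunctional glutamate and proline enzyme EPRS1 of 0.20 ± 0.084 and that of the phenylalanine enzyme's alpha subunit FARSA of 0.13 ± 0.075. SARS1, the serine enzyme, had 0.16 ± 0.087, with 0.25 in both TET2M and Mock and -0.02 in TET2WT. By a size rule of at least 1.1-fold in every line, 4 cytosolic genes and 1 mitochondrial gene were higher, where 4.71% of all genes were, and 0 of 32 were lower (4.99% of all genes).

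The remaining cytosolic genes had differences from 0.13 down to -0.08. These were WARS1 (0.13 ± 0.083), IARS1 (0.073 ± 0.072), LARS1 (0.033 ± 0.074), KARS1 (0.00 ± 0.073), HARS1 (-0.0033 ± 0.071), RARS1 (-0.02 ± 0.076), FARSB (-0.04 ± 0.10) and VARS1 (-0.08 ± 0.073), the enzymes for tryptophan, isoleucine, leucine, lysine, histidine, arginine, phenylalanine (beta subunit) and valine. At the probe sets used, the 2 subunits of the phenylalanine enzyme had differences of opposite sign, neither of them past the test. FARSB was positive in TET2WT at 0.19 and negative in TET2M at -0.07 and in Mock at -0.24. A second FARSA probe set, nearly as bright, was negative in each line, with -0.02 in TET2WT, -0.08 in TET2M and -0.07 in Mock. A dim FARSB probe set was positive in each, at 0.60, 0.36 and 0.56, so these signs changed with the probe set.

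The 5 tested enzymes of the multisynthetase complex (EPRS1, IARS1, KARS1, LARS1 and RARS1) had a median of 0.033, and the 12 cytosolic genes outside it a median of 0.15. AIMP1, the 1 scaffold protein of the complex that was tested, had 0.033 ± 0.078. Of the genes outside the complex, 9 of 12 were positive, and of those inside it 3 of 5. Split by the fold of the catalytic domain, the 7 class I enzymes had a median of 0.073 and the 9 class II enzymes one of 0.14, with EPRS1, which holds a domain of each class, left out.

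Among the mitochondrial enzymes, IARS2, which charges isoleucine, had the lowest difference. It read 10.20, 10.32 and 10.43 at high glucose in TET2WT, TET2M and Mock, against 10.40, 10.59 and 10.51 at normal glucose. It was lower in 3 of 3 lines, but the Mock array at high glucose lay above the TET2WT array at normal glucose, so the groups overlapped. The difference was -0.18 ± 0.077 (adjusted p = 0.333, limma). Then came PARS2 (-0.13 ± 0.11), HARS2 (-0.11 ± 0.078), WARS2 (-0.093 ± 0.12), SARS2 (-0.077 ± 0.10) and AARS2 (-0.063 ± 0.072), the enzymes for proline, histidine, tryptophan, serine and alanine.

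WARS2 and SARS2 had differences of opposite sign among the lines, at 0.23 and 0.17 in TET2WT, -0.34 and -0.29 in TET2M, and -0.17 and -0.11 in Mock. A dimmer WARS2 probe set was positive in each line, at 0.18, 0.22 and 0.26 in the same order. FARS2, YARS2, CARS2, RARS2, VARS2 and EARS2 lay between -0.037 and -0.01. NARS2 (0.067 ± 0.085) and LARS2 (0.09 ± 0.089) were positive, with negative values in TET2WT for both.

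HARS1 and HARS2 are transcribed away from each other, and their promoter windows share 184 bases. Their glucose differences were near 0 in HARS1 and -0.18, 0.01 and -0.15 in TET2WT, TET2M and Mock in HARS2, and neither passed. HARS1 and HARS2 were not tested against each other.

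**Figure D2:**
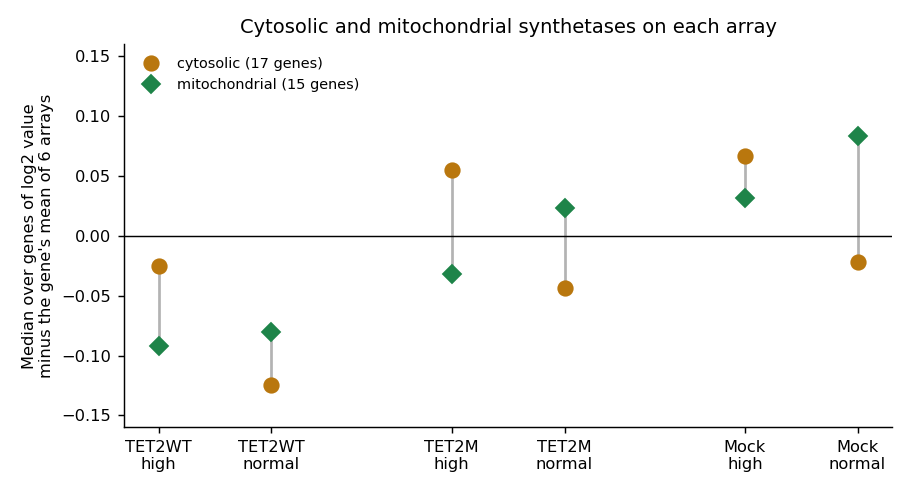
Median of the 17 cytosolic and of the 15 mitochondrial genes on each array (vertical axis, log2 value minus the gene's mean over 6 arrays), by line and glucose. The cytosolic median lies above the mitochondrial median on the 3 high-glucose arrays and below it on the 3 normal-glucose arrays.

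To set the compartments against each other on every array, each gene was centred on its mean over the 6 arrays and the median was taken per compartment. The cytosolic median exceeded the mitochondrial one by 0.067 in TET2WT, 0.087 in TET2M and 0.035 in Mock at high glucose. At normal glucose this difference was -0.045 in TET2WT, -0.067 in TET2M and -0.105 in Mock. The 3 high-glucose arrays were thus on 1 side of 0 and the 3 normal-glucose arrays on the other. This is a description of chosen genes and was given no test.

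Within each line, the cytosolic median was 0.12 in TET2WT, 0.13 in TET2M and 0.14 in Mock, and the mitochondrial median was 0.02, -0.03 and -0.03 in the same order. Positive differences were found in 13, 12 and 12 of the 17 cytosolic genes and in 8, 4 and 7 of the 15 mitochondrial genes. Over all genes, 49.4% were positive in TET2WT, 44.3% in TET2M and 43.3% in Mock. Without the TET2M arrays the mitochondrial median was 0.01, so its sign rested on that line, while the cytosolic median lay between 0.115 and 0.125 with any 1 array left out.

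The variance model decided whether members passed. With limma's intensity trend for the variance, 6 of the 32 did: GARS1 (adjusted p = 0.00347, limma), YARS1 (0.00399), NARS1 (0.00624), TARS1 (0.02495) and CARS1 (0.0255) with positive differences, and IARS2 (0.0493) with a negative one. With that setting 2.18% of all genes passed higher and 1.79% lower. MARS2 was not among them.

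The glucose differences were set beside the promoter matches printed above. The 6 tested cytosolic genes with a match, AARS1, CARS1, GARS1, IARS1, NARS1 and TARS1, had differences from 0.073 to 0.41, with a median of 0.22. The 8 cytosolic genes with a window and no match had differences from -0.04 to 0.20 and a median of 0.063. YARS2, the mitochondrial gene with a match, was at -0.037, and YARS1, with the second largest difference, had no window to search. Over all tested genes with a window, the 350 with a match had a median of -0.0033 and the 11164 without one a median of -0.017.

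**Figure D3:**
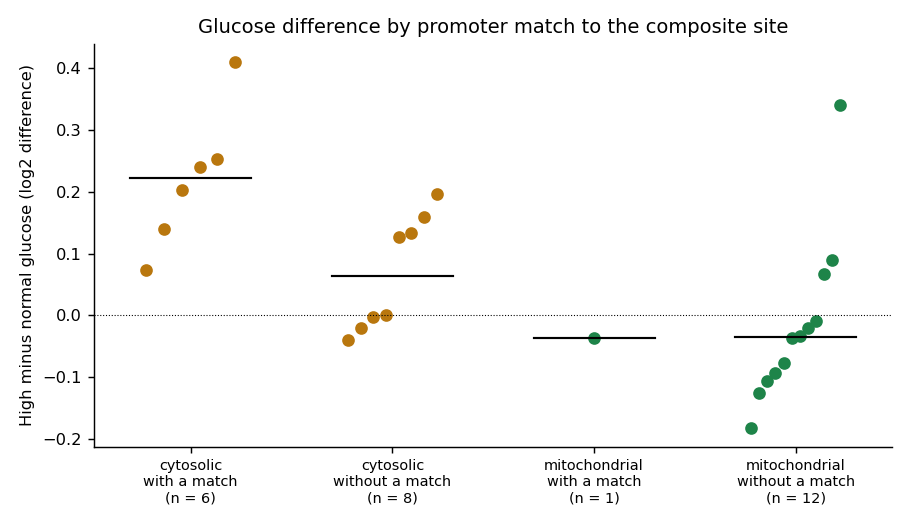
Log2 difference between high and normal glucose (vertical axis) of tested synthetase genes, split by compartment and by a match to TGATGNAA in a promoter window, with the median as a line. The 6 cytosolic genes with a match lie between 0.073 and 0.41, and the 8 without one between -0.04 and 0.20.

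MARS2 had no such match. Its window held CACGTG, the E-box motif bound by MYC and related factors, 11 bases before the start, as did windows of IARS1, CARS2 and EARS2. E-boxes were found in 12.3% of tested genes with a window, and the 3 mitochondrial genes with one had differences from -0.033 to 0.34. The MARS2 sequence is given because MARS2 was the 1 mitochondrial gene whose glucose groups did not overlap, with the E-box in capitals.
MARS2 (chr2:197705332-197705389, + strand): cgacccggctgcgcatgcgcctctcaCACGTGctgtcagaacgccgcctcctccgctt

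Other genes of the stress response and of translation were read from fixed lists, chosen with earlier results of these data known. None of their members passed for glucose in limma. All 22 further ATF4 targets were positive in 3 of 3 lines, a pattern met by 16.7% of all genes, with a median of 0.505. Among them the asparagine synthetase gene ASNS, which makes the amino acid that NARS1 attaches, had 0.68 ± 0.092, and the serine synthesis genes PSPH and PSAT1 had 1.04 ± 0.14 and 0.69 ± 0.073. The ATF4 targets ALDH1L2, a mitochondrial folate enzyme, and STC2, a secreted glycoprotein, had 1.05 ± 0.18 and 0.72 ± 0.082. Each of these 5 exceeded the gene-level differences of all 32 synthetases.

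Of the 14 regulators of the integrated stress response, 11 were positive (43.4% of all genes), with a median of 0.18. ATF4 itself had 0.27 ± 0.072, its partner gene CEBPG 0.69 ± 0.099, ATF3 0.69 ± 0.16 and the feedback gene TRIB3 0.53 ± 0.080. DDIT3, which encodes CHOP, was at 0.043 ± 0.10, with -0.20 in Mock. The 19 tested elongation and initiation factors of the cytosol had a median of 0.053 and none had an unadjusted p under 0.05. Over all genes, 7.18% had such a p with a positive and 8.19% with a negative difference. The 15 tested factors of mitochondrial translation had a median of 0.073, with 11 positive (43.4% of all genes). Of these 11, 3 had an unadjusted p under 0.05, and so had 1 negative gene. Most of the 15 factors thus had positive differences, unlike the mitochondrial synthetases. The release factor family gene MTRFR was at 0.37 ± 0.076 and MRRF, a ribosome recycling factor, at -0.20 ± 0.081. GARS1-DT, a transcript that starts beside GARS1 in the other direction and was looked at after the values of GARS1 were seen, had 0.097 ± 0.077.

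Several synthetase genes had further probe sets, and these did not always agree in size or in sign. SARS1 had a dimmer probe set that read 6.88, 7.08 and 7.01 at high glucose in TET2WT, TET2M and Mock, against 6.14, 5.85 and 5.95 at normal glucose. Its mean difference of 1.01 ± 0.11 compares with 0.16 for the probe set used for the gene. In CARS1 a dimmer probe set read 5.42, 5.59 and 5.61 at high glucose, against 5.22, 4.82 and 4.81 at normal glucose, a difference of 0.59 ± 0.13. Another CARS1 probe set had 0.33 ± 0.081. In FARSB a dim probe set read 3.29, 3.21 and 3.38 at high glucose and 2.69, 2.85 and 2.82 at normal glucose, whereas the probe set used gave -0.04. Over all member probe sets above the low-value limit, 24 of 32 cytosolic and 7 of 26 mitochondrial probe sets were positive, with medians of 0.12 and -0.037. In a fit over all 32768 probe sets, chosen after these values had been seen, 0 passed, so 0 member probe sets did.

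**Figure D4:**
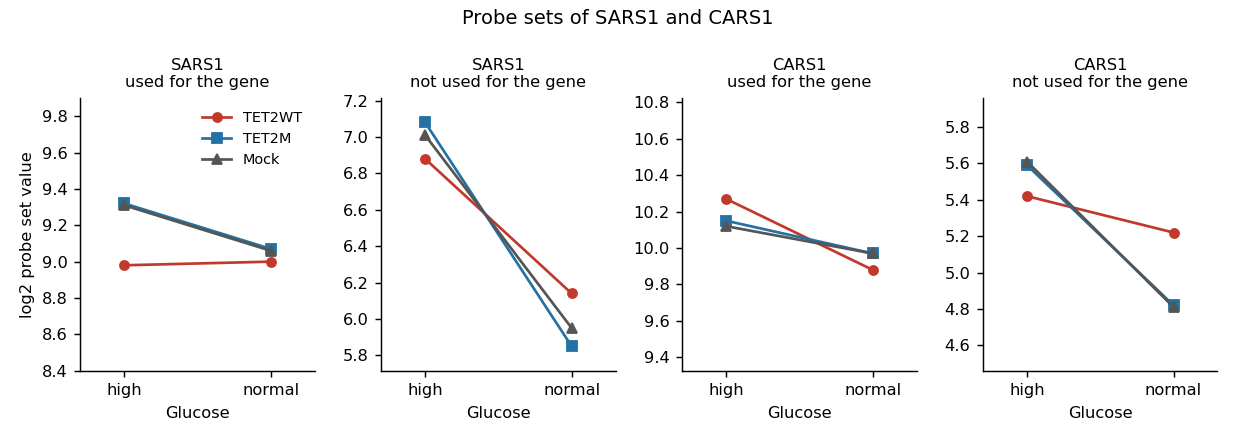
Log2 values of probe sets of SARS1 and CARS1 (vertical axis, the same span in each panel) at high and normal glucose in the 3 lines. In both genes the probe set that was not used for the gene has the wider gap, 1.01 in SARS1 and 0.59 in CARS1.

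TET2WT was next set against Mock, averaging over both glucose concentrations. None of the 32 synthetase genes passed in limma, where 4.21% of all genes did. That background and the calls named below rest on all 6 arrays: of the 608 genes passing, the count was 0 without any 1 of the TET2WT or Mock arrays and 16 without a TET2M array. Of the 32, 25 had a negative difference, as had 51.8% of all genes, and the median was -0.105 for the cytosolic and -0.13 for the mitochondrial genes. Here the compartments lay on the same side, unlike under glucose. The median over all genes was -0.01, and 21 of the 32 were lower in TET2WT at both concentrations, a pattern met by 33.1% of all genes, while 4 were higher at both (27.6% of all genes). With quantile normalization between arrays the medians were -0.0763 and -0.0683.

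FARS2, the mitochondrial phenylalanine enzyme, went the other way. It read 6.48 and 6.46 at high and normal glucose in TET2WT and 5.76 and 5.99 in TET2M, against 6.06 and 5.96 in Mock. Both TET2WT arrays lay above the other 4. The difference from Mock was 0.46 ± 0.11 (adjusted p = 0.0862, limma; higher at 2 of 2 concentrations) and that from TET2M 0.595 ± 0.11 (adjusted p = 0.0515, limma). A second FARS2 probe set read 6.30 and 6.26 in TET2WT, 6.07 and 5.95 in TET2M, and 5.86 and 6.12 in Mock, in the same order of concentrations. With the mean of its 3 probe sets, the differences of FARS2 were 0.2033 from Mock and 0.3317 from TET2M.

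VARS2, the mitochondrial valine enzyme, was the other gene with both TET2WT arrays above the other 4, a pattern of 12% of all genes. It read 7.26 and 7.06 in TET2WT at high and normal glucose, 6.75 and 6.82 in TET2M, and 6.80 and 6.96 in Mock. Set against TET2M, VARS2 had a difference of 0.375 ± 0.11 (adjusted p = 0.171, limma). Against Mock it was 0.28 ± 0.11 (adjusted p = 0.248, limma).

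WARS1 encodes the cytosolic tryptophan enzyme and is known as an interferon-induced gene. It read 8.48 and 8.45 at high and normal glucose in TET2WT and 9.08 and 8.80 in TET2M, against 8.84 and 8.77 in Mock. Both TET2WT arrays lay below the other 4. The difference was -0.34 ± 0.10 from Mock (adjusted p = 0.141, limma) and -0.475 ± 0.10 from TET2M (adjusted p = 0.0751, limma). A second WARS1 probe set had the same order, at 7.78 and 7.75 in TET2WT, 8.40 and 8.19 in TET2M, and 8.25 and 8.15 in Mock.

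Most other interferon genes had differences of the opposite sign from that of WARS1. Of 14 tested, 13 were positive in TET2WT against Mock (47.1% of all genes) with a median of 0.45. Of these, 5 passed higher and 0 lower, where 2.01% and 2.2% of all genes did, among them IFITM1 at 1.725 ± 0.12 (adjusted p = 0.00194, limma), IFI6 at 0.725 ± 0.087 and ISG15 at 0.675 ± 0.099. A WARS1 window held a match to the core of the interferon-stimulated response element 55 bases before the start. This motif, searched on both strands, was present in 3.77% of tested genes with a window and in the members WARS1 and EARS2. The sequence is shown because the difference of WARS1 had the opposite sign from theirs, with the match in capitals.
WARS1 (chr14:100375367-100375428, - strand): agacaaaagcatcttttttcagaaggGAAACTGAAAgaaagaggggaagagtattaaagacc

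**Figure D5:**
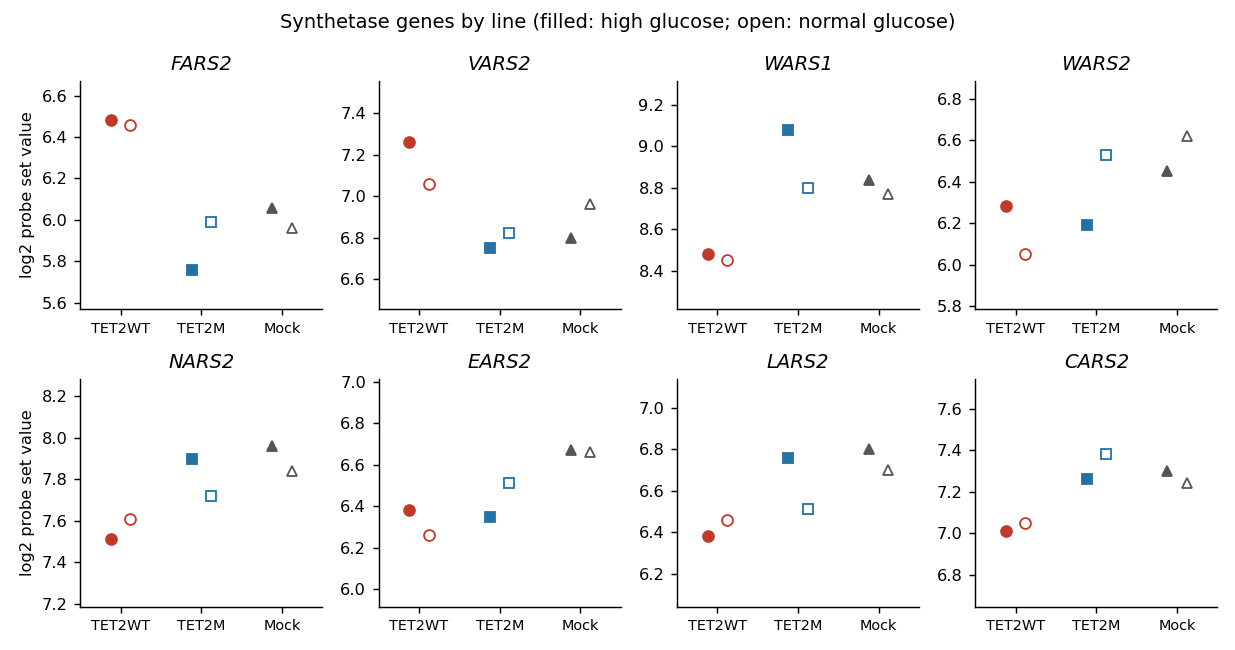
Log2 values of 8 synthetase genes (vertical axes of equal span) in TET2WT, TET2M and Mock, filled at high and open at normal glucose. FARS2 and VARS2 have both TET2WT arrays above the other 4, and WARS1, NARS2, LARS2 and CARS2 have both below.

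Of the 6 genes with the largest differences from Mock, FARS2, WARS2, EARS2, NARS2 and LARS2 were mitochondrial and WARS1 was cytosolic. NARS2, the mitochondrial asparagine enzyme, read 7.51 and 7.61 at high and normal glucose in TET2WT and 7.90 and 7.72 in TET2M, against 7.96 and 7.84 in Mock. Its difference from Mock was -0.34 ± 0.10 (adjusted p = 0.149, limma), and both TET2WT arrays lay below the rest. LARS2, for leucine, read 6.38 and 6.46 in TET2WT and 6.76 and 6.51 in TET2M, against 6.80 and 6.70 in Mock, a difference from Mock of -0.33 ± 0.11 (adjusted p = 0.171, limma).

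EARS2, for glutamate, read 6.38 and 6.26 in TET2WT and 6.35 and 6.51 in TET2M at high and normal glucose, against 6.67 and 6.66 in Mock. Both overexpressing lines lay below both Mock arrays. The difference from Mock was -0.345 ± 0.10 for TET2WT (adjusted p = 0.141, limma) and -0.235 ± 0.10 for TET2M (adjusted p = 0.554, limma). A second EARS2 probe set read 6.28 and 6.03 in TET2WT and 6.22 and 6.44 in TET2M, against 6.30 and 6.16 in Mock, so these groups overlapped. With the median of the probe sets the differences were -0.075 for TET2WT and 0.10 for TET2M, the second of opposite sign. WARS2, the mitochondrial tryptophan enzyme, read 6.28 and 6.05 in TET2WT and 6.19 and 6.53 in TET2M, against 6.45 and 6.62 in Mock. Its arrays of TET2WT and TET2M overlapped, and the difference of TET2WT from Mock was -0.37 ± 0.15 (adjusted p = 0.238, limma). The dimmer WARS2 probe set read 5.30 and 5.12 in TET2WT and 5.58 and 5.36 in TET2M, against 5.74 and 5.48 in Mock. There both TET2WT arrays lay below all others, so the overlap changed with the probe set.

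CARS2, the mitochondrial cysteine enzyme, read 7.01 and 7.05 at high and normal glucose in TET2WT and 7.26 and 7.38 in TET2M, against 7.30 and 7.24 in Mock. The difference was -0.24 ± 0.093 from Mock (adjusted p = 0.227, limma) and -0.29 ± 0.093 from TET2M (adjusted p = 0.188, limma). A dimmer CARS2 probe set ran the other way, with 3.8 and 3.87 in TET2WT and 3.4 and 3.45 in TET2M, against 3.44 and 3.59 in Mock, and the difference from TET2M was -0.02 with the median of the probe sets. CARS2 lies on chromosome 13, whose 257 tested genes had a median difference of -0.315 between TET2WT and Mock, against -0.01 for the other genes. What the chromosome contributes to the value of CARS2 was not tested. VARS1, the cytosolic valine enzyme, read 7.24 and 7.40 in TET2WT and 7.36 and 7.40 in TET2M, against 7.57 and 7.61 in Mock. It differed from Mock by -0.27 ± 0.090 in TET2WT and by -0.21 ± 0.090 in TET2M. Neither value passed, as limma gave an adjusted p of 0.174 for the first and 0.545 for the second. A dimmer VARS1 probe set read 5.13 and 5.14 in TET2WT and 5.11 and 5.11 in TET2M, against 5.15 and 5.08 in Mock. There the lines overlapped, so the gap changed with the probe set.

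Counting both directions, 2 of 32 genes had both TET2WT arrays above the 4 others (12% of all genes) and 11 had both below (12.8% of all genes). The 11 were HARS1, IARS1, KARS1, LARS1, SARS1 and WARS1 of the cytosolic group and AARS2, CARS2, LARS2, NARS2 and RARS2 of the mitochondrial group. Some gaps were small, as in HARS1, with 9.23 on both TET2WT arrays and 9.24 in TET2M at high glucose. A second LARS2 probe set overlapped, with 4.90 in TET2WT and 4.73 in Mock at normal glucose. In bulk RNA a smaller share of cells and less RNA per cell cannot be told apart. Of the 5 tested markers of other cell types, 3 had positive differences between TET2WT and Mock, and the keratin gene KRT14 was the 1 that passed. It was lower in TET2WT, by -2.40 ± 0.11 from Mock (adjusted p = 4.42e-04, limma), while CDH1, CDH5, PTPRC and CD68 did not pass the low-value limit. The summed level of the 5 that did pass was 20.01 and 18.64 at high and normal glucose in TET2WT, 22.03 and 20.64 in TET2M, against 21.37 and 21.29 in Mock. Without KRT14 the markers had no common direction, with KRT5 at 0.055, COL1A1 at 0.34, PECAM1 at 0.195 and DCN at -0.195. Of the 7 tested markers of the melanocyte lineage 5 were positive and 2 passed lower in TET2WT. These were MITF, the regulator of the lineage, at -0.595 ± 0.11 (adjusted p = 0.0433, limma), and the proteoglycan gene CSPG4 at -0.77 ± 0.14 (adjusted p = 0.0422, limma). The part of these markers in the synthetase differences was not tested.

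With limma's intensity trend for the variance, 4 of the 32 passed between TET2WT and Mock: FARS2 (adjusted p = 0.0268, limma) higher, and WARS1 (0.0109), NARS2 (0.0255) and KARS1 (0.0452), the lysine enzyme of both compartments, lower. With that setting 4.55% of all genes passed higher and 6.04% lower.

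The comparison of TET2WT with TET2M set the lines of the 2 constructs against each other. TET2 itself was higher in TET2WT, by 2.14 ± 0.14, so the construct, its level and the line cannot be told apart. None of the 32 passed, where 3.3% of all genes did. As in the comparison with Mock, that background rests on all 6 arrays and was not kept with any 1 of them left out. The settings named below were not refitted with an array left out. Of the 32, 2 had an unadjusted p under 0.05 with a positive and 2 with a negative difference, against 9.52% and 8.13% of all genes. Both concentrations gave a higher value in TET2WT for 6 members and a lower one for 15, where 29.9% and 28.8% of all genes did so. The medians were -0.07 for the cytosolic and -0.085 for the mitochondrial genes, and 0.00 over all genes. FARS2 passed under some settings, at 0.0413 with quantile normalization, 0.0391 with cyclic loess and 0.0367 with a stricter low-value limit (adjusted p, limma). WARS1 passed with the mean of its probe sets (-0.50, adjusted p = 0.0451, limma). Over the 11 settings that kept all arrays of both lines, the main fit included, the count of all genes passing ran from 0 to 1249. With an intensity trend FARS2 (0.00732), WARS1 (0.0013) and VARS2 (0.0448) passed, where 4.8% of all genes passed higher and 3.86% lower.

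Between TET2M and Mock none of the 32 passed, where 0.097% of all genes did, and no member reached an unadjusted p under 0.05, a limit met by 3.34% of all genes with positive and 6.17% with negative differences. TET2M was lower than Mock at both concentrations in 11 of the 32 (33.9% of all genes) and at least 1.1-fold higher at both in 0 (6.37% of all genes). With an intensity trend 0 of the 32 passed either, where 0.256% of all genes passed higher and 0.776% lower. The cytosolic median was -0.005 and the mitochondrial one -0.095, where the median over all genes was -0.02. Of the 15 mitochondrial genes 12 were negative, as were 54.7% of all genes. After EARS2 and VARS1, MARS2 had the largest difference at -0.19 ± 0.087, with 5.30 and 4.92 in TET2M against 5.45 and 5.15 in Mock at high and normal glucose. PARS2 (-0.175 ± 0.14), WARS2 (-0.175 ± 0.15) and SARS2 (-0.14 ± 0.13) followed. PARS2 read 3.59 and 3.59 in TET2M against 3.55 and 3.98 in Mock at high and normal glucose, so its difference had opposite signs at the 2 concentrations. SARS2 read 5.61 and 5.90 in TET2M against 5.84 and 5.95 in Mock, and was lower in TET2M at both.

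Last, the glucose difference in TET2WT was set against the mean of TET2M and Mock, which asked whether that line stood apart from the others. None of the 32 passed, and 0% of all genes did. The median was 0.005 for the cytosolic and 0.00 for the mitochondrial genes. WARS2 had the largest value, 0.485 ± 0.13 (adjusted p = 0.531, limma), being positive in TET2WT and negative in the other lines. A second WARS2 probe set had positive glucose differences in all lines, 0.18 in TET2WT, 0.22 in TET2M and 0.26 in Mock, and with the mean of the probe sets the value was 0.2125. It was the 1 member with an unadjusted p under 0.05, where 5.06% of all genes were higher and 4.12% lower by that rule. SARS2 (0.37 ± 0.14), FARSB (0.345 ± 0.13) and VARS2 (0.315 ± 0.11) were also positive. SARS2 read 5.86 and 5.69 at high and normal glucose in TET2WT, and FARSB read 8.65 and 8.46 there, against 8.71 and 8.78 in TET2M and 8.63 and 8.87 in Mock. YARS2, the mitochondrial tyrosine enzyme (-0.365 ± 0.16), and SARS1 (-0.27 ± 0.098) were negative. YARS2 read 4.83 and 5.11 at high and normal glucose in TET2WT, 4.99 and 5.02 in TET2M, and 5.19 and 4.99 in Mock. SARS1 read 8.98 and 9.0 in TET2WT, 9.32 and 9.07 in TET2M, and 9.31 and 9.06 in Mock. For the 6 genes with the largest glucose differences this value ran from -0.21 in GARS1 to 0.225 in CARS1, with 0.00 in MARS2.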

How the data were processed

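The authors deposited 1 log2 value per probe set and array. The submitters' processing notes name Affymetrix Expression Console, without a version or summary method. The log2 scale was read from the range of the values (1.56 to 13.78). Once sorted, the 6 columns lay within 0.12 of each other at every rank, which shows a common scale before deposit. Of 54675 probe sets, 41097 name 1 gene in the platform annotation, 1801 several and 11777 none. Symbols were updated by gene ID for 41043 of the 41097 with RefSeq (GRCh38.p14). Probe sets with a mean below the 40th percentile (2.64) and control probe sets were left out. No values were normalized further.

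The additive model in limma 3.58.1 (R 4.3.3; lmFit and eBayes, two-sided, Benjamini-Hochberg over 14428 genes) had terms for line and glucose, with 2 residual and 3.97 prior degrees of freedom. Another fit let the glucose difference of TET2WT differ from that of the other lines, with 1 residual degree of freedom. The fits were tested on simulated data. Figures used Python 3.11.15 and matplotlib 3.10.9. Precision is limited by there being 6 arrays.

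Of the 36 genes, 1 is not reported here. The genes and the gene lists were chosen with earlier results of these data known. In each comparison the 6 members with the largest absolute difference were described by array, further members by their values, and at most 4 genes of each list were named, with ASNS, ATF4, DDIT3 and TET2 beside them. Alternatives changed the low-value limit, the probe set rule, the scaling, the variance model, the terms and the arrays.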

Additional observations from a re-analysis of the deposited data

Results flagged for a closer look

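SARS1 and CARS1 each had a probe set that was not used in the gene comparisons and whose 3 high-glucose arrays all lay above the 3 normal-glucose arrays, with a mean difference of at least 1.5-fold. In SARS1 the difference was 1.01 ± 0.11 (adjusted p = 0.0833, limma, over all probe sets), with 0.74 in TET2WT, 1.23 in TET2M and 1.06 in Mock. The SARS1 probe set used for the gene gave 0.25 in both TET2M and Mock and -0.02 in TET2WT. In CARS1 the difference was 0.59 ± 0.13 (adjusted p = 0.220, limma, over all probe sets), with 0.20 in TET2WT, 0.77 in TET2M and 0.80 in Mock, while the probe set used had 0.39, 0.18 and 0.15 in the same order. The part of the transcript that each probe set reads was not examined here.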

How the results depend on the processing

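No paired analysis was possible because the labels carry no replicate numbers, beyond the comparison of glucose within lines that the model already makes (without the line term, 0 members passed for glucose). Of the values of named members under alternatives, 467 kept their direction and did not newly cross the threshold. Those of the TET2WT-specific term with 1 array left out had no test and count among the 467 by direction alone. Another 15 newly passed the threshold. The other 4 changed sign, all between TET2M and Mock. These were EARS2 with the median of probe sets (0.10), PARS2 without the normal-glucose Mock array (0.0525), and WARS2 (0.01) and SARS2 (0.02) without the high-glucose TET2M array. With 1 array left out PARS2, WARS2 and SARS2 ran from -0.4025 to 0.0525, from -0.36 to 0.01 and from -0.30 to 0.02. The mean of probe sets moved CARS1 to 0.3878 and TARS1 to 0.1167 for glucose, VARS1 to -0.1075 between TET2M and Mock, and LARS2 to -0.345 between TET2WT and TET2M. The count of members passing was 6 for glucose and 4 for TET2WT against Mock with an intensity trend. For TET2WT against TET2M it was 3 with that trend and 1 with the 60th percentile limit, with the mean of probe sets, with quantile normalization and with cyclic loess. With the mean or the median of probe sets, the cytosolic glucose median was 0.12 or 0.1167, and the medians of TET2WT against Mock were -0.095 (cytosolic) and -0.12 (mitochondrial) with either. The median of probe sets gave -0.055 for the mitochondrial genes in TET2M against Mock. The cytosolic median of the TET2WT-specific glucose term was -0.0625 with the mean and -0.02 with the median of probe sets. Quantile normalization gave -0.0763 (cytosolic) and -0.0683 (mitochondrial) for TET2WT against Mock, 0.0242 and -0.0575 for TET2M against Mock, -0.0558 (cytosolic) for TET2WT against TET2M, and 0.0625 (mitochondrial) for the TET2WT-specific term. Cyclic loess gave 0.1222 (cytosolic) for glucose, -0.0789 and -0.0845 for TET2WT against Mock, and 0.0201 and -0.0616 for TET2M against Mock. Leaving out the TET2M line, the glucose medians were 0.115 (cytosolic) and 0.01 (mitochondrial). With 1 array left out, the cytosolic and mitochondrial medians ran from 0.115 to 0.125 and from -0.065 to 0.01 for glucose. They ran from -0.1275 to -0.0575 and from -0.185 to -0.13 for TET2WT against Mock, from -0.035 to 0.01 and from -0.115 to -0.05 for TET2M against Mock, and from -0.095 to -0.03 and from -0.12 to -0.03 for TET2WT against TET2M. The cytosolic median of TET2WT against Mock was -0.06 without the high-glucose TET2WT array and -0.0575 without the normal-glucose Mock array. For the TET2WT-specific term the medians ran from 0.00 to 0.04 and from -0.03 to 0.07, as values with no test, and leaving out a TET2WT array could not be fitted. The cause of these shifts was not tested.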

Other observations

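Genes of mitochondrial translation other than the synthetases had negative differences between TET2WT and Mock in 13 of 15 cases (51.8% of all genes). Their median was -0.16, and 2 passed in limma, where 4.21% of all genes did. MTRF1, which encodes a mitochondrial protein of the release factor family, read 4.84 and 4.89 at high and normal glucose in TET2WT and 5.37 and 5.22 in TET2M, against 5.70 and 5.59 in Mock. It fell by 0.78 ± 0.096 in TET2WT (adjusted p = 0.0139, limma), and it lies on chromosome 13, whose genes had a median of -0.315 in this comparison. PUS1, an enzyme that modifies tRNA, lies on chromosome 12 and read 6.33 and 6.02 in TET2WT and 6.92 and 6.48 in TET2M, against 6.80 and 6.63 in Mock. It fell by 0.54 ± 0.10 in TET2WT (adjusted p = 0.0452, limma). Both TET2WT arrays of MTRF1 lay below the other 4, and so did those of PUS1.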
